A study of Mus musculus with 6 samples.

Results

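The human chromosomal band 22q11 is the site of a recurrent deletion, and the mouse orthologues of the genes it removes lie together on mouse chromosome 16. The 34 genes described here were chosen by position and name: they are the mouse genes orthologous to that deletion region, with Cldn5 left out of the list, and all 34 had a row among the 15734 rows of the table. Of these, 32 were matched to the annotation by their symbol and 2, Dgcr14 and Ufd1l, are older symbols of Ess2 and Ufd1. On the GRCm38 build all 34 lie within 1690.0 kb of chromosome 16. RNA-seq of polyadenylated RNA was made from 6 mouse embryos at embryonic day 9.5. The mutant group was 3 embryos with a neural tube defect that carried the msp3 allele of Smarcc1 (BAF155) in both copies, and the wild-type group was 3 homozygous wild-type embryos. The product of Smarcc1 is a scaffold of the BAF complexes, which move nucleosomes with the energy of ATP. The comparison asks how the allele alters the transcriptome of the head just after the neural tube should close. All 6 embryos had the same mixed background of C57BL/6J and 129/SvImJ. The tissue was the part of the head that lies above the otic vesicles and pharyngeal arches. The sample labels give 19 to 21 somites, whereas the series design gives 21 to 23. Cranial tissue holds neural tube, mesenchyme, vessels and surface ectoderm together, so that fewer cells of a type and less RNA per cell cannot be told apart in these values.

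Loss of a single copy of the human region causes the 22q11 deletion syndrome, also known as DiGeorge or velocardiofacial syndrome, with malformations of the heart outflow tract, thymus, palate and face and a raised risk of psychiatric illness. Most of the genes have no function in common. They include TBX1, the T-box transcription factor whose loss accounts for much of the pharyngeal and cardiac phenotype, the microRNA processing factor DGCR8, several mitochondrial enzymes and a number of synaptic and membrane proteins. The smaller of the common human deletions removes a proximal interval, which is represented here by 22 mouse genes, among them Tbx1, Prodh and Hira, and the larger one also removes a distal interval, represented by 12 genes, among them Crkl, Lztr1 and Scarf2. No member was deleted or targeted in these mice.

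The libraries held between 46170743 and 82067578 reads counted in rows. The row named Smarcc1 averaged 41152 ± 9892 in mutants and 51848 ± 9944 in wild type (mean normalized reads ± SD, n = 3 each), with overlapping values. Over the whole table, 3 rows passed (0.0225% of 13329 tested), all lower in mutants and none on chromosome 16. That count depended on single libraries. It fell to 0 when wild type 2 or wild type 3 was left out, and was 14 when mutant 1 or mutant 2 was, and 6 when mutant 3 was. Mutant 2 stood apart on the first principal component, at -44.1, with the other libraries between -3.38 and 20.3. Many row names elsewhere in the table do not carry the level of the named gene: the rows named Actb and Gapdh, abundant housekeeping genes of other chromosomes, averaged 82.1 and 7.78 normalized reads. Smarcc1 lies on such a chromosome too, and its row was not used to check the genotypes. On chromosome 16 the levels fit the names, with Tssk2, Gsc2 and other members best known from other organs low, and the members are therefore described as genes.

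The members spanned a wide range of levels, from Ranbp1 at the top to Tssk2 at the bottom. A normalized read is the authors' read count divided by a size factor for the library, and levels between genes are compared per kb of exon. Ranbp1, which regulates the Ran GTPase in nuclear transport and spindle assembly, was by far the highest, at 48783 normalized reads per kb over the 6 libraries. This placed it above 99.6% of the rows of chromosome 16. Dgcr2, a transmembrane protein with an adhesive extracellular part, followed at 5729 per kb, and Cdc45, a subunit of the helicase that opens replication forks, at 4321 per kb. At the other end stood Tssk2, a testis kinase, at 12.1 per kb, the homeobox gene Gsc2 at 33.4 per kb and the amino acid transporter family member Slc7a4 at 39.9 per kb. In all, 8 members lay below 300 normalized reads per kb: besides these 3 they were Rtn4r, P2rx6, Serpind1, Aifm3 and Gp1bb, whose best known sites of expression are mature neurons, muscle, liver, brain and platelets. The other 26 lay between 701 per kb (Sept5) and the level of Ranbp1. Tbx1 itself stood at 812 per kb, rank 24 of the 34 members and above 55.4% of the rows of chromosome 16.

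**Figure D1:**
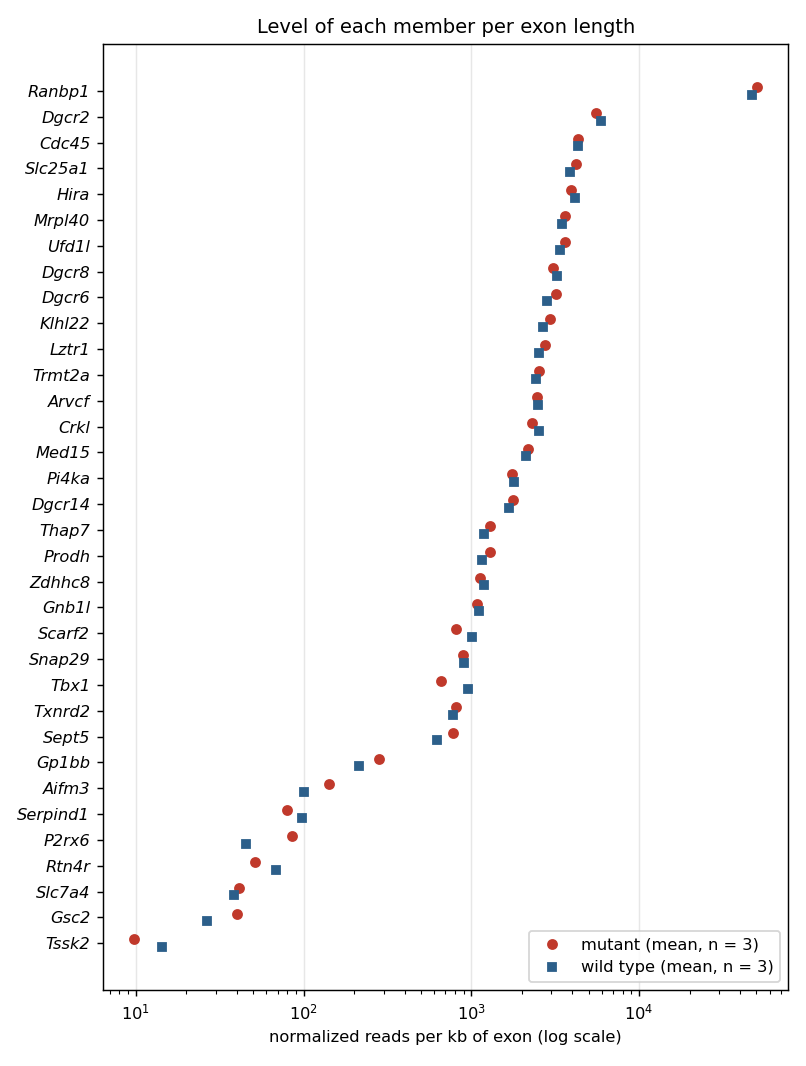
Mean level of each of the 34 members in mutant (circles) and wild-type (squares) libraries, in normalized reads per kb of exon on a log axis, n = 3 each. Ranbp1 lies far above all others, and 8 members lie below 300 per kb in both genotypes.

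No member passed the test between genotypes. Of the 34, 0 had an adjusted p below 0.05 (limma, Benjamini-Hochberg over 13329 rows, of which 0.0225% passed). The smallest adjusted p was 0.367, for Sept5. The count was 0 as well with edgeR and with DESeq2 on the reads recovered from the table, and in every other alternative run. DESeq2 came nearest, with adjusted p = 0.0600 for Sept5, 0.0622 for Tbx1 and 0.0865 for P2rx6, and it gave no adjusted p for 1 member. At an unadjusted p below 0.05 there were 7 members (20.6%), against 10.8% of all rows tested and 8.21% of the 487 other rows tested on chromosome 16. In 4 of them, Sept5, Aifm3, P2rx6 and Gp1bb, the mean was higher in mutants (11.8% of members, against 5.31% of all rows and 4.72% of the other rows of chromosome 16). In the other 3, Tbx1, Scarf2 and Rtn4r, it was lower (8.82% of members, against 5.52% and 3.49%). Leaving out wild type 3 left 3 such members, with 6.41% of all rows then below 0.05, and array quality weights gave 11, with 16.03% of all rows. In 12 members (35.3%) the values of the genotypes did not overlap, against 19.1% of all rows and 15.6% of the other rows of chromosome 16. Of these, 8 lay higher in mutants (23.5%, against 8.69% of all rows and 8.62% of the other rows of chromosome 16) and 4 lower (11.8%, against 10.4% and 6.98%). Besides 6 of the 7 above, they were Gsc2, Klhl22, Lztr1 and Dgcr14, higher in mutants, and Crkl and Zdhhc8, lower in mutants. These shares describe the members only: 14 of the 34 share exon bases with another gene, and neighbours along a chromosome are not independent.

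**Figure D2:**
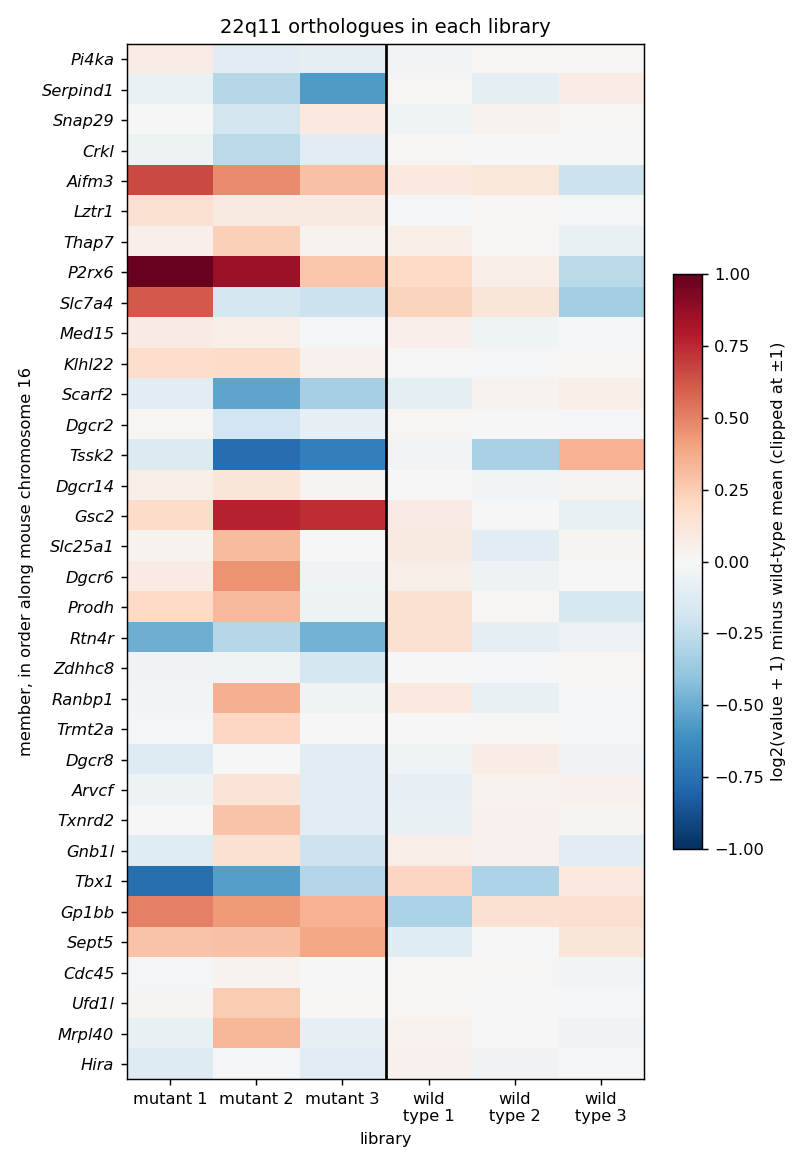
Each member (rows, in order along chromosome 16) in each library (columns, mutants left of wild types), as log2(value + 1) minus the mean of the wild-type libraries. Most rows are pale. Tbx1, Scarf2 and Rtn4r lie below 0 (blue) and P2rx6, Aifm3, Gp1bb and Sept5 above 0 (red) in all 3 mutants, and Ranbp1, Dgcr6 and Mrpl40 are reddest in mutant 2.

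Most differences were small. In 24 of the 34 members the log2 difference, mutant minus wild type, was smaller than 0.2 in size, and the median over the members was 0.058, against 0.0061 for the other rows of chromosome 16 and -0.0047 for all rows. The median size of a difference was 0.10 among members and 0.10 among the other rows of the chromosome. The log2 difference was positive in 20 members (58.8%, against 48.9% of all rows and 50.9% of the other rows of chromosome 16) and negative in 14. By interval, the median was 0.058 over the 22 proximal and 0.057 over the 12 distal genes. Of the 10 members with a log2 difference of 0.2 or more in size, 7 were among the 8 members with a mean below 1000 normalized reads, where counting error is largest. The exceptions were Tbx1, Sept5 and Scarf2.

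**Figure D3:**
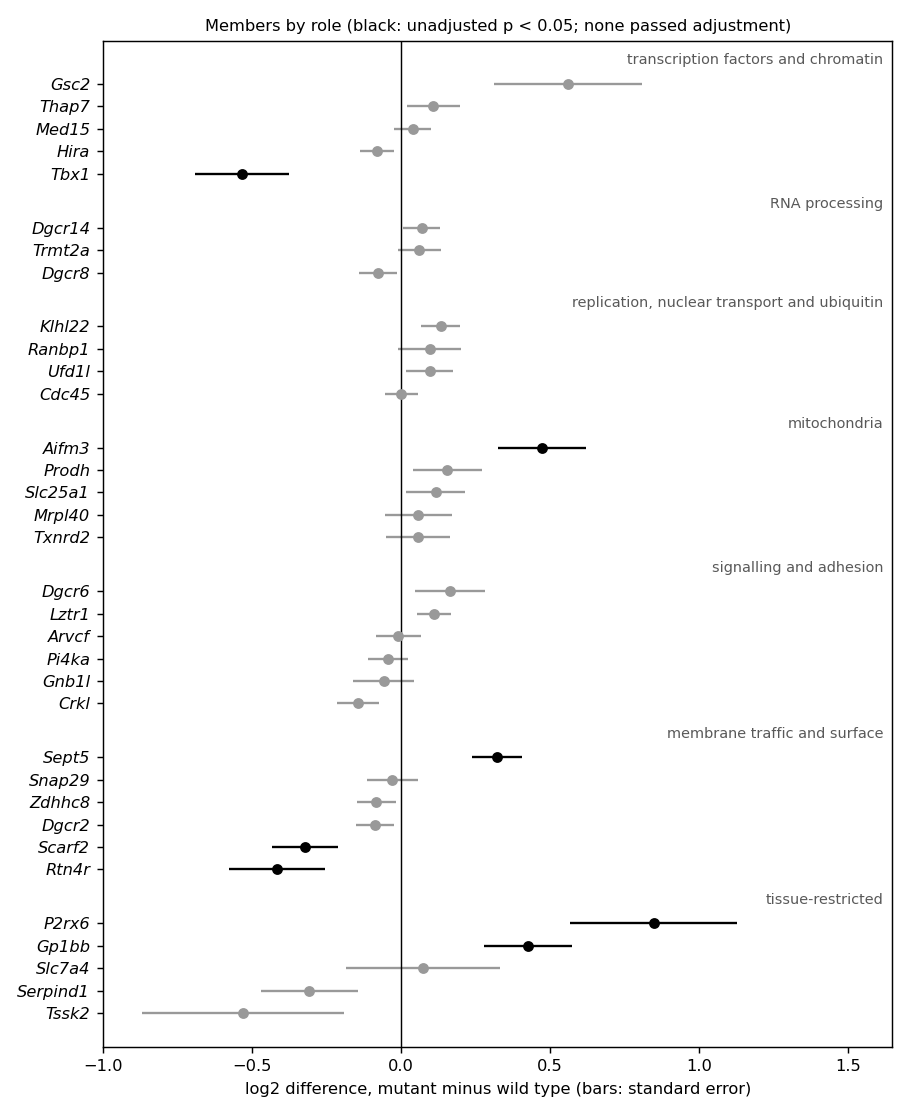
Log2 difference of each member, mutant minus wild type (points) with its standard error (bars), grouped by role. The 7 members in black had an unadjusted p below 0.05, and none passed adjustment over all rows. Tbx1 has the lowest value of its group at -0.53 and P2rx6 the highest of all at 0.85.

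Among the transcription factors and chromatin proteins, Tbx1 stood out by its lower mean in mutants. Tbx1 is expressed in the pharyngeal endoderm and in the mesoderm of the head and pharynx, and is needed for the pharyngeal arches, the outflow tract and the inner ear, so that much of its territory lies outside the dissected tissue. Tbx1 had 1507, 1735 and 2074 normalized reads in mutants 1, 2 and 3, against 2945, 2049 and 2716 in wild types 1, 2 and 3. Mutants 1 and 2 lay below every wild type, while mutant 3 lay just above wild type 2, so that the genotypes overlapped. The means were 1772 ± 285 in mutants and 2569.8 ± 466 in wild type (SD, n = 3 each), a log2 difference of -0.53 ± 0.16 (SE, adjusted p = 0.396, limma). By an exact two-sided permutation test of the means p was 0.2, and groups of 3 cannot reach a p under 0.1. The log2 difference kept its sign in all 17 alternatives, from -0.69 to -0.42, and the adjusted p ran from 0.0622 to 0.745 over them. Hira had 17954, 19464 and 18198 normalized reads in mutants 1, 2 and 3, against 20192, 19117 and 19487 in wild types 1, 2 and 3. Hira, a chaperone that deposits a replacement histone outside replication, overlapped between genotypes and had a log2 difference of -0.081 ± 0.057 (SE). Med15, a subunit of the Mediator complex, had a log2 difference of 0.040, and the zinc finger repressor Thap7 had 0.11, which was 0.043 without mutant 2. Gsc2 had few reads in every library, from 24 to 71 recovered reads. Gsc2 had 35.4, 53.7 and 52.4 normalized reads in mutants 1, 2 and 3, against 32.9, 31.0 and 29.5 in wild types 1, 2 and 3. All mutants lay above all wild types, with a log2 difference of 0.56 (adjusted p = 0.462, limma).

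Cells other than neural progenitors contribute to the dissected tissue, and their markers on chromosome 16 and the start of chromosome 19 were read beside Tbx1. In endothelium 2 of 5 markers did not overlap between genotypes, both lower in mutants: Cldn5, a tight junction protein, had 1473 ± 255 in mutants and 2297 ± 196 in wild type, and Klhl6 had 737 ± 104 in mutants and 989 ± 68.4 in wild type (SD, n = 3 each). The other 3 overlapped and differed in sign, with log2 differences of -0.29 for Erg, 0.050 for Adamts1 and 0.27 for Jam2. The summed level of the 5 ran from 10286 to 13143 in mutants and from 11545 to 12264 in wild type. Among mesenchyme markers Fstl1, a secreted glycoprotein, lay lower in mutants with 20470.0 ± 3871, against 26324 ± 1691 in wild type, and Snai2 and Adamts5 overlapped. The sum of these 3, most of it Fstl1, ran from 17349 to 24769.8 in mutants and from 25652 to 28794 in wild type. Neuron markers leaned the other way: of 4, Gap43, Sst and Ncam2 lay higher in all mutants and Robo2 overlapped. Their sum, most of it Gap43, ran from 9941 to 11386 in mutants and from 8395 to 9743 in wild type. Sst varied widely among wild types, with 971 ± 294 in mutants and 171 ± 125 in wild type. Ncam2 was low, with 52.3 ± 9.12 in mutants and 35.4 ± 9.73 in wild type (SD, n = 3 each). All 3 neural progenitor markers (Hes1, Olig1, Olig2), all 3 epithelial markers (Trp63, Ovol1, Cldn1) and the blood marker Runx1 overlapped. The progenitor sum ran from 4101 to 7559 in mutants and from 4893 to 5179 in wild type. The epithelial sum ran from 1625 to 2680.2 in mutants and from 1547 to 1993 in wild type, and Runx1 from 227 to 388 in mutants and from 214 to 278 in wild type. No marker was at 0 and none passed. The part of such cells in the values of Tbx1 and the other members was not tested.

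**Figure D4:**
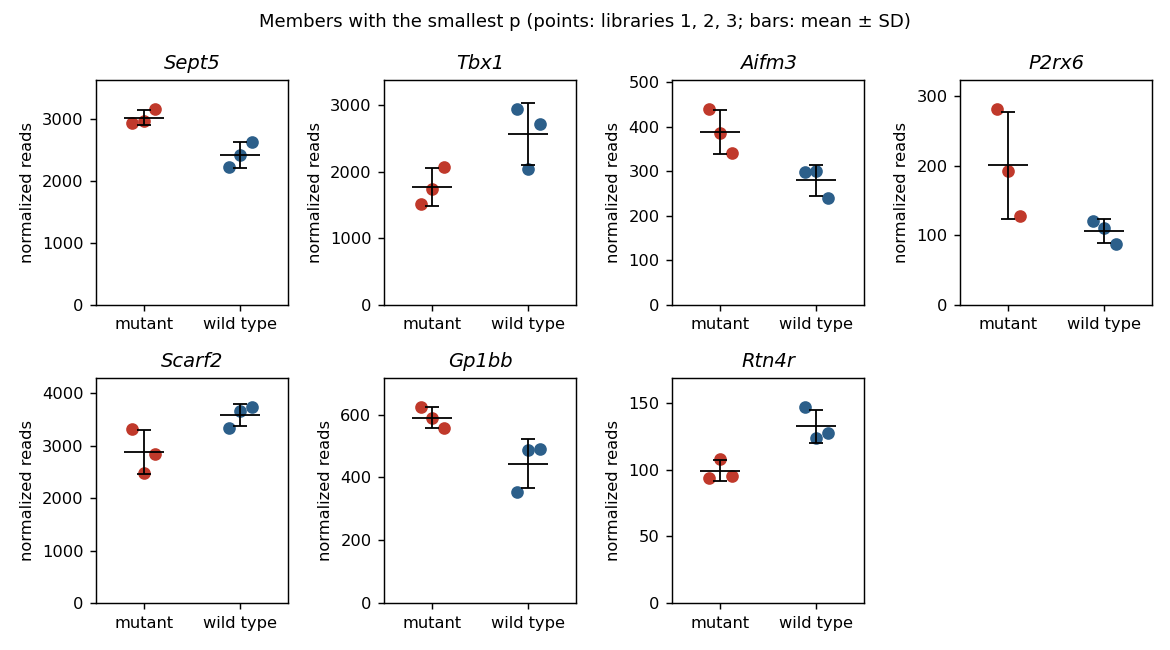
Normalized reads of the 7 members with an unadjusted p below 0.05 in each library (points), with mean and SD (bars), mutants left and wild types right, all axes starting at 0. Mutant 3 and wild type 2 overlap for Tbx1, and the genotypes are separate in the other 6.

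The RNA processing members differed little between genotypes. Dgcr8, which binds primary microRNAs for Drosha, averaged 13269.6 ± 675 in mutants and 13995 ± 654 in wild type (SD, n = 3 each), a log2 difference of -0.077 (adjusted p = 0.642, limma). Dgcr14, whose product associates with the spliceosome, had 4999 ± 159.7 in mutants and 4762 ± 97.1 in wild type (SD, n = 3 each). Its genotypes were separate by a narrow margin, with 4854.5 in the lowest mutant and 4852.4 in the highest wild type, and the log2 difference was 0.070 (adjusted p = 0.670, limma). Trmt2a had 8867, 10314 and 8900.1 normalized reads in mutants 1, 2 and 3, against 8954, 9006 and 8863 in wild types 1, 2 and 3. Trmt2a, a tRNA methyltransferase, was high in mutant 2 alone, and its log2 difference of 0.063 was -0.0093 without that library. Dgcr8 and Trmt2a face each other, and 19.1% of the exon bases of Dgcr8 and 22.4% of those of Trmt2a are shared between the genes on opposite strands. The kit named in the labels does not mark strand, so that reads there cannot be assigned to either.

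Genes of replication, nuclear transport and ubiquitin ligases all had positive log2 differences, and none passed. Cdc45 had 9119, 9461 and 9213 normalized reads in mutants 1, 2 and 3, against 9344, 9326 and 9094 in wild types 1, 2 and 3. Cdc45 had the smallest spread of all members among mutants, with a coefficient of variation of 1.90% in mutants and 1.51% in wild type. Its log2 difference was 0.0015 ± 0.055 (SE), and its sign turned without mutant 2 (-0.014). Ranbp1 had 51749, 67757 and 51399 normalized reads in mutants 1, 2 and 3, against 56541, 50066 and 52064 in wild types 1, 2 and 3. Only mutant 2 lay outside the range of the wild types on the high side, and the log2 difference of 0.10 became -0.034 without it. Ufd1l had 7114, 8329 and 7040.4 normalized reads in mutants 1, 2 and 3, against 7079.8, 6974 and 6909 in wild types 1, 2 and 3. Ufd1l, a cofactor of the segregase that extracts ubiquitinated proteins, was highest in mutant 2, with mutant 1 just above the wild types, and its log2 difference of 0.10 was 0.018 without that library. Klhl22 had 7937, 7999.5 and 7226 normalized reads in mutants 1, 2 and 3, against 7047, 6929.8 and 7113 in wild types 1, 2 and 3. For Klhl22, a substrate adaptor of a cullin ubiquitin ligase, all mutants lay above all wild types, with a log2 difference of 0.13 ± 0.065 (SE, adjusted p = 0.481, limma).

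Among the members 4 pairs start within 1000 bases of each other and are read in opposite directions, by the RefSeq starts. They are Ranbp1 with Trmt2a (188 bases between the starts), Cdc45 with Ufd1l (321 bases), Mrpl40 with Hira (112 bases) and Pi4ka with Snap29 (134 bases). Stretches between the starts and outside every annotated exon are shown for 3 of the pairs, since both genes of a pair share them. They are limited to the 250 bases before the plus-strand start. For Cdc45 and Ufd1l, bases nearer the Cdc45 start are therefore not shown. Each stretch is the plus strand of GRCm38, 5′ to 3′, from the RefSeq promoter table. Capitals mark matches to the letters GGCGGGAA (E2F), CCGGAA (ETS), CCAAT (the CCAAT box), GGGCGG (the GC box) or TATAAA (the TATA box) on either strand. The first pair covers chr16:18248733-18248882, the second chr16:18812044-18812258 and the third chr16:17405894-17405985.
Ranbp1 and Trmt2a: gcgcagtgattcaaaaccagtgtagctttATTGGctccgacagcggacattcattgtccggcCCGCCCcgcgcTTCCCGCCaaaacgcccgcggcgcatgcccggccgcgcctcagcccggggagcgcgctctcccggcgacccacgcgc
Cdc45 and Ufd1l: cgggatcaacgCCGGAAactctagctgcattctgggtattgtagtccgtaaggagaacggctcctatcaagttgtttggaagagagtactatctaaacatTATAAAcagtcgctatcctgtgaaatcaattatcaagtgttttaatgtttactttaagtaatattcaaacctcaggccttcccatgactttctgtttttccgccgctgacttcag
Pi4ka and Snap29: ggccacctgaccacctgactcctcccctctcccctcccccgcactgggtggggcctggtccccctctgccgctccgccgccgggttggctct
The stretch of Ranbp1 and Trmt2a was 70.0% G and C and held an E2F, a GC box and a CCAAT match, each on the minus strand. The part shown for Cdc45 and Ufd1l was 40.9% G and C and held an ETS and a TATA match. The 250 bases before the Cdc45 start also held CCAAT and GC box letters, outside the part shown. The stretch of Pi4ka and Snap29, at 75.0% G and C, held no match to these 5 motifs. None of the marked matches overlap. In the 250 bases before each start, the E2F letters occurred for 3 of the 32 members with a promoter in the table (9.38%), namely Ranbp1, Trmt2a and Klhl22, against 2.13% of all genes in it. Ranbp1 and Trmt2a were counted from the same bases. The ETS letters occurred for 10 members (31.2%, against 13.6% of all genes) and the CCAAT letters for 12 (37.5%, against 37.5%). GC box letters occurred for 23 members (71.9%, against 35.4%), and TATA letters for 5 (15.6%, against 14.3%). The marked ETS and TATA matches count for both Cdc45 and Ufd1l. Likewise, the marked CCAAT and GC box matches count for both Ranbp1 and Trmt2a.

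Partners of a pair differed in level to very different degrees. Ranbp1 had 19.6 times the level of Trmt2a per kb, and this ratio lay between 18.9 and 21.5 in the mutant libraries and between 18.2 and 20.7 in the wild-type libraries. For Cdc45 over Ufd1l it was 1.24, for Mrpl40 over Hira 0.880 and for Pi4ka over Snap29 1.99. Across the 6 libraries the log2 values of Ranbp1 and Trmt2a had a Pearson's r of 0.93 with mutant 2 the highest library for both genes. Pearson's r was 0.70 for Cdc45 and Ufd1l, 0.48 for Mrpl40 and Hira and 0.27 for Pi4ka and Snap29. These are descriptions over libraries that share their depth and normalization.

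All 5 mitochondrial members had positive log2 differences, and none passed. Aifm3 had 439.7, 386 and 341 normalized reads in mutants 1, 2 and 3, against 298, 301 and 239.9 in wild types 1, 2 and 3. For Aifm3, a relative of apoptosis-inducing factor, every mutant lay above every wild type, with a log2 difference of 0.47 ± 0.15 (SE, adjusted p = 0.396, limma). Over the 17 alternatives the log2 difference of Aifm3 ran from 0.37 to 0.58. With the genotypes apart, leaving out a library could not turn its sign. Prodh had 3759, 4103 and 3159 normalized reads in mutants 1, 2 and 3, against 3638, 3306 and 2932 in wild types 1, 2 and 3. Prodh, which starts proline breakdown, had a log2 difference of 0.16 with overlapping genotypes, which was 0.072 without mutant 2, 0.075 without wild type 3 and 0.26 without mutant 3. Mrpl40 had 4300.2, 5689 and 4272 normalized reads in mutants 1, 2 and 3, against 4639.8, 4517 and 4411 in wild types 1, 2 and 3. Mrpl40, a protein of the mitochondrial ribosome, had a log2 difference of 0.059. Slc25a1, the mitochondrial citrate carrier, had a log2 difference of 0.12, and Txnrd2, the mitochondrial thioredoxin reductase, 0.058. In each of these 3 genes mutant 2 was the highest of the 6 libraries, and without it the log2 differences were 0.016 for Slc25a1, -0.077 for Mrpl40 and -0.056 for Txnrd2. The signs of Mrpl40 and Txnrd2 therefore rested on that library.

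Among the signalling and adhesion genes, Crkl and Lztr1 did not overlap between genotypes and had opposite signs. Crkl had 12399, 10604 and 11878 normalized reads in mutants 1, 2 and 3, against 12924, 12773 and 12745 in wild types 1, 2 and 3. Crkl, an adaptor of receptor tyrosine kinase signalling, was lower in every mutant than in every wild type, with a log2 difference of -0.14 (SE 0.069, adjusted p = 0.481, limma), which was -0.078 without mutant 2. The wild types lay within a coefficient of variation of 0.752%. Lztr1 had 9545, 9149.7 and 9135 normalized reads in mutants 1, 2 and 3, against 8530.3, 8716 and 8523 in wild types 1, 2 and 3. Lztr1, which directs Ras proteins to a ubiquitin ligase, was higher in every mutant, with a log2 difference of 0.11 ± 0.056 (SE, adjusted p = 0.492, limma). Pi4ka had 12737, 11255 and 11286 normalized reads in mutants 1, 2 and 3, against 11873, 12239.7 and 12154 in wild types 1, 2 and 3. Pi4ka, a kinase that makes the plasma membrane's phosphatidylinositol phosphate, had a log2 difference of -0.042, with the wild types inside the range of the mutants. The catenin family member Arvcf, which binds cadherins, had -0.0081, with a positive sign under quantile normalization (0.0113), and the WD repeat protein Gnb1l had -0.058. Dgcr6 had 0.16, with 7194 in mutant 2 and between 5069 and 5554 in the other 5 libraries, and 0.022 without mutant 2.

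Of the 6 membrane traffic and surface genes, Sept5 had a higher mean in mutants and Scarf2 and Rtn4r lower ones, and none passed. Sept5 had 2934, 2955 and 3153 normalized reads in mutants 1, 2 and 3, against 2212, 2410.0 and 2623 in wild types 1, 2 and 3. Sept5 encodes a septin that restrains vesicle release at presynaptic terminals. Every mutant lay above every wild type, and the means were 3014 ± 121 in mutants and 2415 ± 205 in wild type (SD, n = 3 each), a log2 difference of 0.32 ± 0.084 (SE, adjusted p = 0.367, limma). Over the alternatives the difference ran from 0.26 to 0.38 and the adjusted p from 0.0600 to 0.735. Scarf2 had 3319, 2484 and 2843 normalized reads in mutants 1, 2 and 3, against 3339, 3672 and 3731 in wild types 1, 2 and 3. Scarf2, a scavenger receptor family member whose human gene is mutated in a craniofacial and skeletal syndrome, was lower in every mutant, although mutant 1 lay just below wild type 1. The log2 difference was -0.32 ± 0.11 (SE, adjusted p = 0.404, limma), and -0.22 without mutant 2. Of the 3 mesenchyme markers above, Fstl1, which makes up most of their sum, was also lower in every mutant, with a log2 difference of -0.38, while Snai2 (0.062) and Adamts5 (-0.069) overlapped, and their part in the value of Scarf2 was not tested. Rtn4r had 94.1, 108 and 95.2 normalized reads in mutants 1, 2 and 3, against 147, 124 and 127 in wild types 1, 2 and 3. Rtn4r, the receptor for the axon growth inhibitor Nogo, was also lower in every mutant, with a log2 difference of -0.41 ± 0.16 (SE, adjusted p = 0.432, limma). Both Rtn4r and Sept5 are genes of neurons, and their differences had opposite signs. Of the 4 neuron markers above, Gap43, Sst and Ncam2 lay higher in mutants and Robo2 overlapped, with a log2 difference of -0.093. The part of neurons in the values of Rtn4r and Sept5 was not tested. Zdhhc8 had 5639.8, 5618 and 5164 normalized reads in mutants 1, 2 and 3, against 5789.8, 5697 and 5881 in wild types 1, 2 and 3. Zdhhc8, a palmitoyltransferase, was lower in every mutant, with a log2 difference of -0.082 (adjusted p = 0.628, limma). Dgcr2 had 25739, 22228 and 23987 normalized reads in mutants 1, 2 and 3, against 25743, 25514 and 25077 in wild types 1, 2 and 3. Dgcr2 had a log2 difference of -0.088, which was -0.034 without mutant 2, and mutant 1 lay within the wild types. Snap29 had 3112, 2748 and 3337 normalized reads in mutants 1, 2 and 3, against 3018, 3194 and 3141 in wild types 1, 2 and 3. Snap29, a SNARE protein of membrane fusion, was lowest in mutant 2 and highest in mutant 3, and its log2 difference of -0.028 was 0.048 without mutant 2.

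The tissue-restricted members had few reads, from 11 to 756 recovered reads per library,, and none of the 5 passed. P2rx6 had 281, 192 and 128 normalized reads in mutants 1, 2 and 3, against 121, 110.4 and 87.3 in wild types 1, 2 and 3. P2rx6, a subunit of ATP-gated ion channels, had the largest log2 difference of all members, 0.85 ± 0.28 (SE, adjusted p = 0.404, limma). Its mutants did not overlap the wild types but differed among themselves, with mutant 1 the highest and mutant 3 close to wild type 1. Leaving out single libraries moved the log2 difference between 0.57 and 1.13. Gp1bb had 623, 591 and 558 normalized reads in mutants 1, 2 and 3, against 353, 488 and 491 in wild types 1, 2 and 3. Gp1bb, a subunit of the platelet receptor for von Willebrand factor, was higher in every mutant, with a log2 difference of 0.43 ± 0.15 (SE, adjusted p = 0.404, limma), which was 0.27 without wild type 1. It lies downstream of Sept5 on the same strand, and 91.1% of its annotated exon bases are also exon bases of Sept5, as are 49.1% of those of Sept5 in Gp1bb. The rows of Gp1bb and Sept5 may therefore count the same transcripts in part, and their shared direction is not independent. Serpind1, the liver-made thrombin inhibitor heparin cofactor, had a log2 difference of -0.31 with overlapping genotypes, which was -0.18 without mutant 3. Slc7a4 had 202, 117 and 114 normalized reads in mutants 1, 2 and 3, against 154, 143 and 104 in wild types 1, 2 and 3. Slc7a4 also overlapped, with a log2 difference of 0.074 that lay between -0.20 and 0.22 with 1 library removed, and only mutant 1 lay above every wild type. Tssk2 had 17.7, 11.1 and 11.8 normalized reads in mutants 1, 2 and 3, against 19.2, 15.5 and 25.3 in wild types 1, 2 and 3. For Tssk2 the genotypes overlapped, and the log2 difference of -0.53 ± 0.34 (SE) did not pass (adjusted p = 0.559, limma).

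The mutant libraries varied more than the wild types in nearly all members, and in many of them mutant 2 lay farthest from the other libraries. The coefficient of variation was larger in mutants in 30 of 34 members, with a median of 9.24% in mutants and 4.66% in wild type. Among the other rows of chromosome 16 it was larger in mutants in 71.5%. Mutant 2 was the highest of the 6 libraries in 15 members and the lowest in 6. Relative to the mean of mutants 1 and 3, it was higher by 0.43 for Dgcr6, 0.41 for Mrpl40, 0.39 for Ranbp1 and 0.34 for Txnrd2 on the log2 scale. For Scarf2 it stood at -0.31, for Snap29 at -0.23, for Crkl at -0.19 and for Dgcr2 at -0.16. These deviations were related to exon length. Of the 26 members with a mean of 1000 or more, all 7 with less than 2500 bases of exon were higher in mutant 2, with a median of 0.30, whereas 11 of 19 longer genes were, with a median of 0.058. Pearson's r with log2 exon length was -0.57 over these 26 genes, and -0.53 over 298 other rows of chromosome 16 with such a mean. Both are given as descriptions over genes that share the same libraries. Among the members wild type 1 showed the same counts at a smaller size: relative to the mean of wild types 2 and 3 it was higher in all 7 short genes, with a median of 0.091, and in 11 of 19 longer ones, with a median of 0.0033. Its Pearson's r with log2 exon length was -0.46 over the 26 genes and -0.032 over the 298 rows. Spearman's rho over the 26 genes was -0.48 for mutant 2 and -0.54 for wild type 1. Over the 298 rows rho was -0.65 for mutant 2 and -0.13 for wild type 1. The relation was thus found in both libraries over the members, while over the 298 rows it was mainly that of mutant 2. The mean of mutants 1 and 3 minus that of the wild types had an r of -0.080 with log2 exon length over the 26 genes. Without mutant 2 the sign of the log2 difference turned in 6 members, none of them among the 7 with an unadjusted p below 0.05. In 6 of those 7 the genotypes did not overlap, so that leaving out a library could not turn the sign. The other was Tbx1, at -0.52 without mutant 2.

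**Figure D5:**
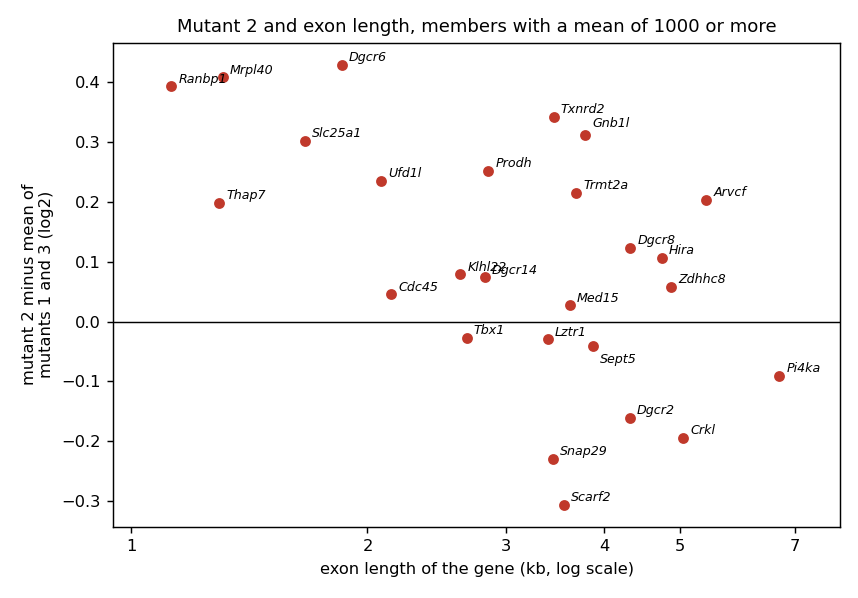
Log2 value of mutant 2 minus the mean of mutants 1 and 3 against exon length (kb, log axis) for the 26 members with a mean of 1000 or more normalized reads. The 7 genes shorter than 2500 bases all lie above 0, and the genes below 0, among them Scarf2 and Crkl, are longer.

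Other genes of chromosome 16 from the 22q11-related blocks were read beside the members. Of 22 further symbols, 19 had a row and 18 were tested with limma, and 0 passed over all rows (0.0225% of which passed), while 2 had an unadjusted p below 0.05, a share near that of all rows (10.8%). The log2 difference was positive in 8 and negative in 10, with a median of -0.0041, and 7 of the 18 did not overlap between genotypes, against 19.1% of all rows. Ccdc74a had 350.3, 351 and 346 normalized reads in mutants 1, 2 and 3, against 259, 281 and 258 in wild types 1, 2 and 3. The gene Ccdc74a had a log2 difference of 0.39 (adjusted p = 0.371, limma), with all mutants above all wild types. Cldn5 had a log2 difference of -0.65 (adjusted p = 0.318, limma), beside 0.0015 for Cdc45. Of 21 genes linked with Tbx1 in pharyngeal development, 13 had a row but only Chrd and Hes1 lie where names fit levels. Chrd, a secreted BMP antagonist, had a log2 difference of 0.19 and the Notch target Hes1 0.048, both with overlapping genotypes.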

How the data were processed

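The deposited values are a normalized signal, made by the authors from read counts divided by 1 factor for each library. CASAVA 1.7, bedtools and mm9 are named in the submitters' processing notes, without a role. The sources used here do not give the counting rule or its annotation. Every value was a whole multiple of the lowest non-zero value of its library (100% of values within 0.001 reads), so that whole reads were recovered. Each library is 1 embryo, prepared with an Illumina TruSeq RNA kit, per the labels. Within a genotype the libraries were further apart than counting error (chi-square over degrees of freedom, 10.5 to 83.8). A further 12 unnamed columns were not used.

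The test was limma 3.58.1 (R 4.3.3) with a mean-variance trend on log2(value + 1), two-sided, for 13329 rows with a mean of at least 10, Benjamini-Hochberg adjusted at 0.05. All 34 members passed that filter. Fold changes on this scale understate changes of low genes. The alternatives include edgeR 4.0.16 and DESeq2 1.42.0 on recovered reads. Positions, exon lengths and overlaps come from GENCODE M21 (GRCm38), and promoters from the RefSeq table of GRCm38.p6; no coordinates were converted. The limma step was also run on simulated counts, drawn with the same relative spread for all genes and no shift particular to a library. That run checks the code only, and does not show how the test performs on these libraries. The members and lists were chosen with earlier results of these data known. Given in full are Tbx1, members with an unadjusted p below 0.05, the 3 largest differences in each direction, the 3 highest and lowest levels, and divergent pairs; Gsc2 and Tssk2 are among these, and other members are given by role.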

Additional observations from a re-analysis of the deposited data

How the results depend on the processing

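No member passed at 0.05 in any of the alternatives run, nor at an adjusted p below 0.1 in the planned fit. With DESeq2, Sept5 (adjusted p = 0.0600), Tbx1 (0.0622) and P2rx6 (0.0865) lay below 0.1, and 1 member had no adjusted p. The count of 3 called rows over the whole table became 5 with quantile normalization, 5 with equal medians, 60 with array quality weights, 5 at an adjusted p below 0.1, 155 with DESeq2 (which gave no adjusted p for 2073 rows) and 0 with limma without trend. It ranged from 0 to 14 without single libraries. The count of 7 members with an unadjusted p below 0.05 was a measure added after seeing the data. It was 11 with array quality weights, with 16.03% of all rows then below 0.05. Without single libraries it ranged from 3 to 9, with 6.41% to 16.2% of all rows. The count of 12 members without overlap ranged from 12 to 17 with a library left out. The share of all rows without overlap was then 26.6% to 35.8%, against 19.1% with all 6. Of the 34 members, 24 kept the sign of their log2 difference in all alternatives and 10 did not. For the 12 members without overlap, leaving out a library could not turn the sign. With array quality weights the value reversed for Cdc45 (-0.0091), Mrpl40 (-0.0308), Txnrd2 (-0.0211) and Pi4ka (0.0120). Arvcf, at -0.0081 in the planned fit, reversed with edgeR (0.0014), equal medians (0.0087) and quantile normalization (0.0113). When libraries were left out in turn, these log2 differences ran from -0.0093 to 0.0998 for Trmt2a, from -0.0138 to 0.0128 for Cdc45, from -0.0345 to 0.1648 for Ranbp1, from -0.0771 to 0.1295 for Mrpl40, from -0.0565 to 0.1407 for Txnrd2, from -0.0759 to 0.0390 for Arvcf, from -0.1622 to 0.0162 for Gnb1l, from -0.0917 to 0.0483 for Snap29 and from -0.1952 to 0.2175 for Slc7a4. The cause of these reversals was not tested. Equal medians moved the median of all rows by 0.017 and quantile normalization by 0.0043. The labels do not say that replicate numbers pair embryos, and deviations gave no sign of it (correlations -0.045, -0.00025 and 0.059). The replicate block gave 3 calls, 2 of them shared with the planned fit, and 0 members. With a minimum mean of 50, Gsc2 and Tssk2 were left out and gave no value. The lowest member, Tssk2, rests on 11 to 24 reads a library.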
